A study of Homo sapiens with 4 samples.

Results

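Interferon-stimulated genes are the genes that cells switch on when an interferon binds its receptor. A list of 45 such genes was followed in MV4-11 cells, a human acute myeloid leukaemia (AML) line, with and without knockdown of ANP32B. The members were found by gene symbol among the 18885 genes of the expression table. Of the 45, 37 had a row, and the 8 others (IFI27, IFI44, IFI44L, IFIT5, OAS2, IFITM3, XAF1 and LGALS3BP) had no row and were not analysed here. All genes listed had a mean of at least 0.5 TPM, the share of transcripts scaled to a fixed library total, over the 4 libraries.

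Type I interferons bind a receptor of IFNAR1 and IFNAR2, and the kinases JAK1 and TYK2 then phosphorylate STAT proteins. STAT2 and IRF9 are parts of the resulting complex, ISGF3, which binds a DNA element, the interferon-stimulated response element (ISRE), in front of its target genes. Interferon gamma acts mainly on another element, the gamma-activated site (GAS). In myeloid cells the same genes also keep a low level of activity without added interferon, and they code for RNA sensors, proteins that block viral replication, and the signalling factors themselves.

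Total RNA was sequenced from 2 control libraries (sh-NC) and 2 ANP32B knockdown libraries (sh-ANP32B), and no other agent is named in the labels for either group. The labels describe the control cells as untreated with no shRNA, whereas the study's methods name a control hairpin. If the control cells carried none, the effects of carrying and selecting a hairpin cannot be told apart from those of losing ANP32B. The labels of the knockdown libraries give no hairpin, their columns carry the code S3, and whether that code means a hairpin is not stated. The study's methods state in general that experiments were repeated independently, but the labels do not say whether the 2 libraries of a group came from separate cultures. If they did not, the p-values measure only the spread between these libraries, and that spread may be technical.

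ANP32B, the targeted gene and a histone-binding nuclear protein, stood at 358 and 364 TPM in sh-NC and at 54.1 and 49.3 TPM in sh-ANP32B. Its log2 fold change was -2.78 ± 0.06 (standard error, SE, n = 2 libraries per group), with an adjusted p of 2.89e-05 by limma with Benjamini-Hochberg adjustment over all genes tested. Of 9 AML myeloid markers 8 had a row, among them HOXA9, SPI1, CEBPA and CD33, whereas MPO had none. The erythroid, fibroblast and epithelial markers had no row, CD3D and CD3E had none, and the plasmacytoid dendritic cell markers CLEC4C and LILRA4 had none. The 11 of 13 monocyte and macrophage markers with a row moved with the groups, from a summed level of 1574 to 1610 TPM in sh-NC to 8900 to 9132 TPM in sh-ANP32B. CD14 and VCAN had no row. The T cell marker CD2 stood at 0.521 and 0.442 TPM in sh-NC and at 3.62 and 3.63 TPM in sh-ANP32B. Of the 11 monocyte and macrophage markers 10 were higher (90.9%, against 17.9% of all genes tested), at a median log2 fold change of 2.41. The part of these markers in the results below was not tested. In libraries made from whole cultures, fewer cells of a kind and less RNA per cell cannot be told apart.

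Knockdown of ANP32B went with higher expression of many interferon-stimulated genes, but not of all. Summed over the 37 members with a row, expression was 1315 and 1367 TPM in sh-NC and 1853 and 1908 TPM in sh-ANP32B. STAT2 and IRF9, both parts of the ISGF3 complex, rose, as did IFI6, SAMD9L, IFI16, IFI30 and IRF7. HERC5 and IFITM1 fell. The dsRNA editor ADAR, the kinase EIF2AK2, the sensor RIGI and the restriction factor IFITM2 were not called.

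Of the 37 members, 36 reached at least 1 TPM in at least 2 libraries and were tested, and IFIT2 did not. The call rule asked for an adjusted p below 0.05 and for a change of more than 0.5 in either direction on the log2 scale, where a fold change is the difference in log2(TPM + 1) between the group means and so understates the change of low genes. On that rule 18 members were higher in sh-ANP32B, which is 50% of those tested, against 17.9% of all 16937 genes tested. A further 2 members were lower, or 5.56%, against 10.1% of all genes. The median log2 fold change was 0.54 over the members tested and 0.08 over all genes, with the middle 50% of all genes between -0.26 and 0.45. Without any call, both sh-ANP32B libraries were above both sh-NC libraries for 25 members and below them for 6, and the groups overlapped for 5. Over all genes tested 42.5% lay above and 32.1% below in this way. The members and the lists below were chosen with earlier results of these data known. The shares given here and below therefore describe the lists and do not test them.

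OASL and SAMD9 passed the filter on low values only through the sh-ANP32B libraries, and IFITM1 only through the sh-NC libraries. Among the other 33 members, 16 were higher and 1 was lower, at a median of 0.53. These 33 still include ISG20, below 1 TPM in sh-NC replicate 2, and IFIT1, below 1 TPM in sh-NC replicate 1. Both needed the sh-ANP32B libraries to pass the filter, and ISG20 is among the 16. With at least 1 TPM in every library 31 members were tested. Of these 15 (48.4%) were higher, against 17% of all genes, and 1 was lower, at a median of 0.47. The number of members called higher was 12 (33.3%) without sh-NC replicate 1, 15 (41.7%) without sh-NC replicate 2, 13 (36.1%) without sh-ANP32B replicate 1 and 15 (41.7%) without sh-ANP32B replicate 2. The shares of all genes called higher in the same refits were 13.9%, 15.8%, 14.8% and 14.9%. Quantile normalization moved the median of all genes from 0.08 to -0.04 and the share of all calls that were lower from 36.1% to 50.2%. Under it 13 members (36.1%) were higher and 2 lower, against 13% of all genes higher and 13.2% lower. The members' median lay 0.43 above that of all genes, against 0.46 on the TPM as deposited.

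**Figure D1:**
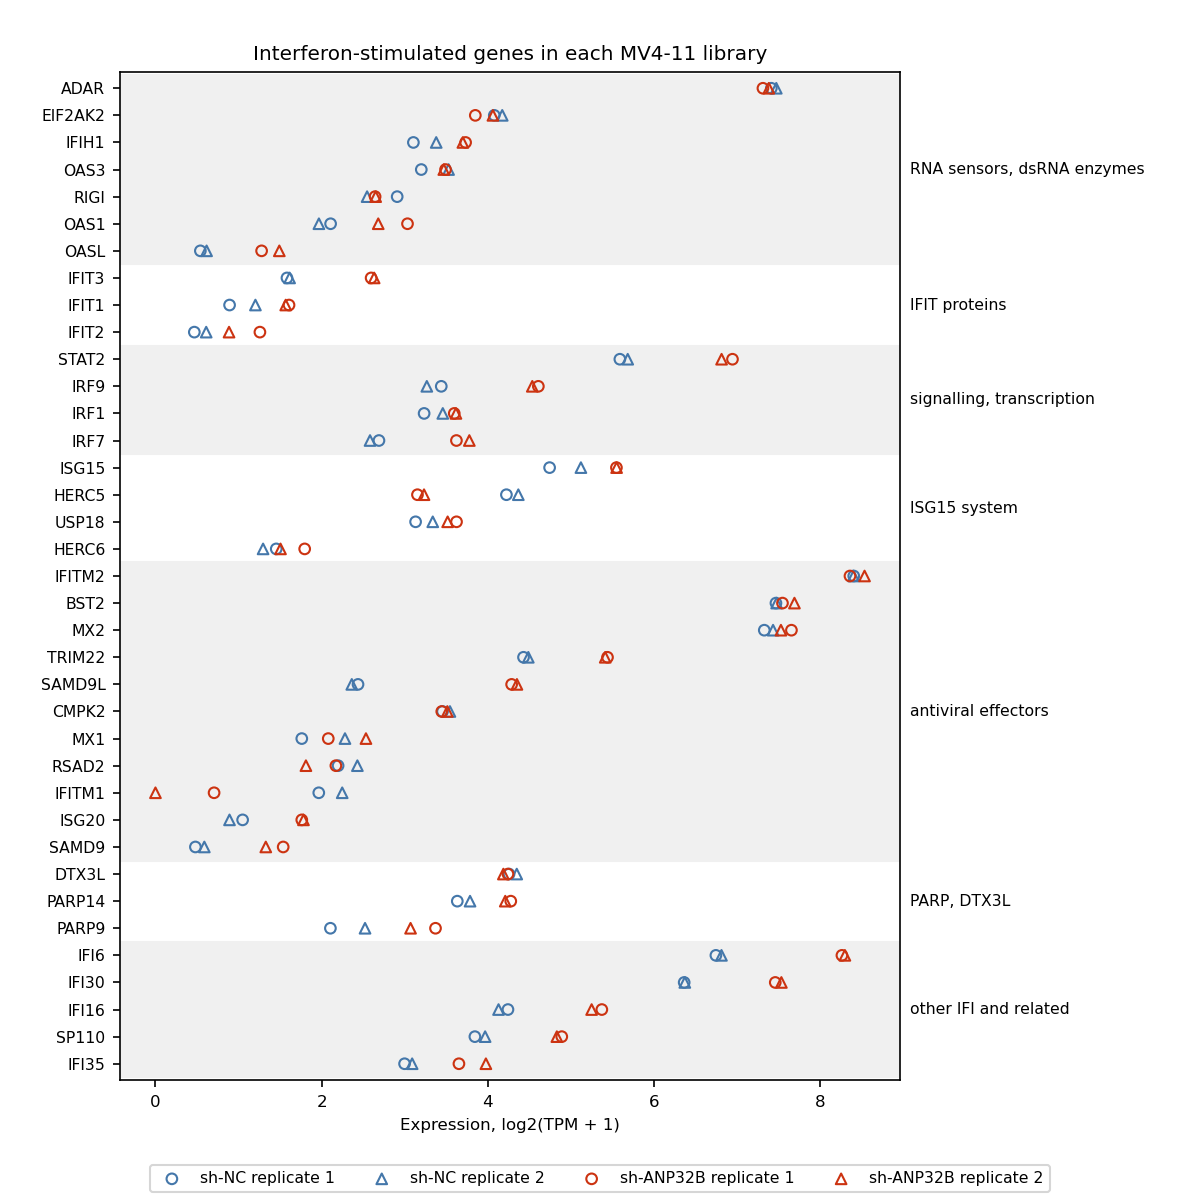
Expression of the 37 interferon-stimulated genes with a row, as log2(TPM + 1) on the horizontal axis, with genes grouped by role and ordered by mean level within each role. Blue symbols are sh-NC libraries and red symbols sh-ANP32B libraries, circles replicate 1 and triangles replicate 2. IFI6, SAMD9L, STAT2 and IFI30 show the red symbols well to the right of the blue ones, HERC5 and IFITM1 to the left, and for IFITM2, MX1, OAS3, RIGI and CMPK2 the groups overlap.

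Promoter sequences were taken from the RefSeq windows on GRCh38.p14, which run from 250 bases before to 50 bases after each annotated start. They were searched on both strands for the letters of the ISRE core, GAAANNGAAA, for a core spaced by 1 base less, GAAANGAAA, and for the GAS core, TTCNNNGAA, where N is any base. Windows were found for 37 of the 45 members, 51 in all since some genes have several starts. There was no entry for IFIT2, MX2, OAS2, OASL, IRF7, IFITM2, USP18 and TRIM22. The ISRE core lay in 27 of the 51 windows, or 52.9%, against 3.57% of all 34943 windows. The closer-spaced core lay in 17 of them, or 33.3%, against 3.12%. The GAS core lay in 11 of them, or 21.6%, against 7.66%. Matches of different motifs can overlap, and windows of a gene with several starts can share bases. At least 1 ISRE core lay in the windows of 23 members and at least 1 of the 2 spacings in those of 30. The search took exact letters only, so near matches were not counted. These letters are a description of the sequence, and a window without them says nothing of binding elsewhere or at a near match.

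Members with the ISRE core and members without it were both among those that were higher. Of the 36 members tested, 30 had a window. Among the 17 with an ISRE core, 7 were higher, 2 lower and 8 not called, at a median log2 fold change of 0.47. Among the 13 without it, 8 were higher, none lower and 5 not called, at a median of 0.82. HERC5 and IFITM1, the 2 that were lower, both held the core, though IFITM1 passed the filter only through its level in sh-NC. SAMD9, which was higher and held the core, passed the filter only through its level in sh-ANP32B. ISG20, also higher with the core, needed the sh-ANP32B libraries to pass, as it was below 1 TPM in sh-NC replicate 2. SAMD9L, STAT2, IRF9, IFI30 and IFI16 were higher without the ISRE core, and of these IFI16 held the closer-spaced core. With either spacing counted, 11 of 23 members with a core were higher and 2 lower, at a median of 0.53, and 4 of 7 without one were higher and none lower, at a median of 1.13. The difference between the groups with and without the core was not tested.

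**Figure D2:**
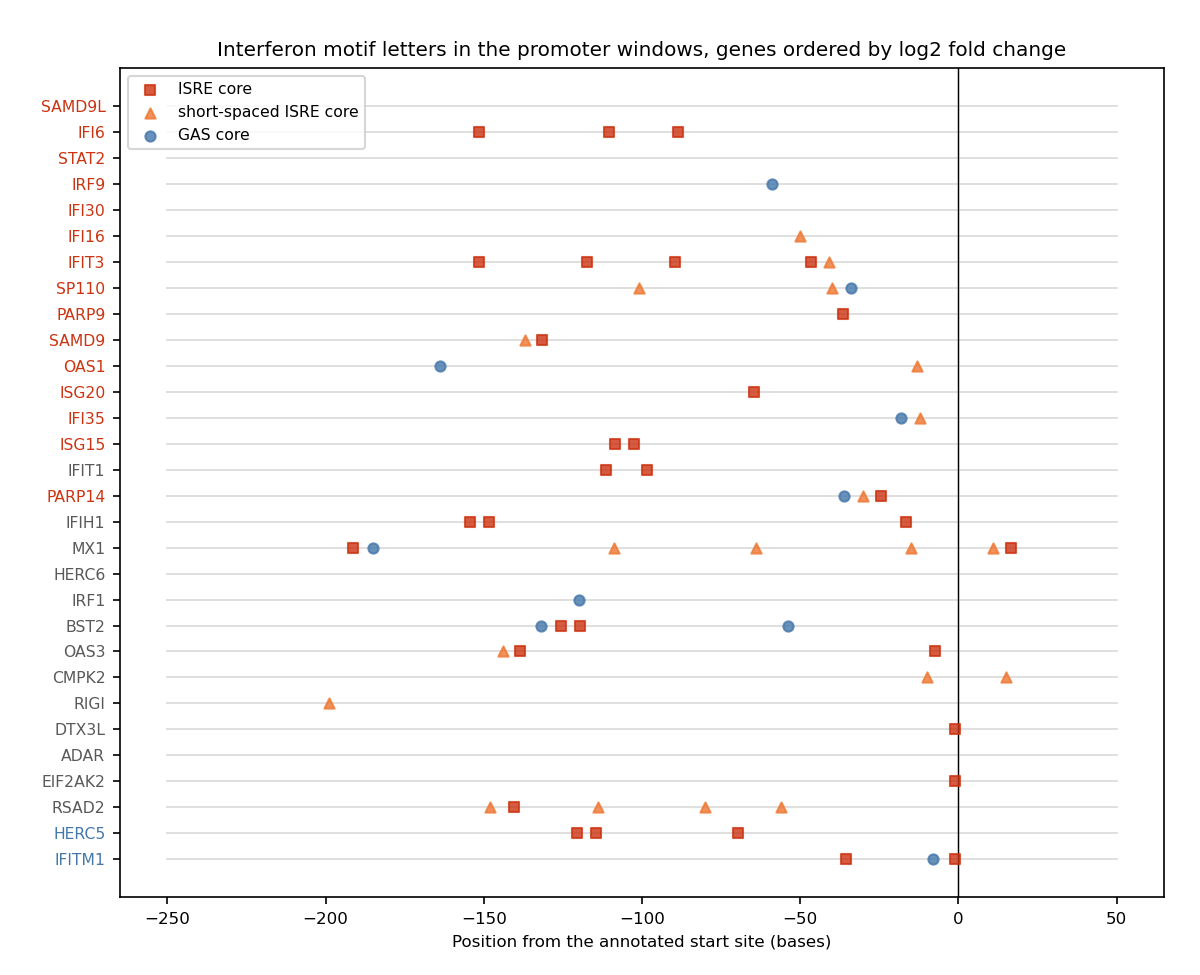
Positions of the motif letters in the promoter windows of the 30 tested members that had one, in bases from the annotated start site, with genes ordered from the highest log2 fold change at the top to the lowest at the bottom. Squares are ISRE cores, triangles the closer-spaced cores and circles GAS cores; gene names are red where higher in sh-ANP32B, blue where lower and grey where not called. Windows of a gene with several starts are laid over each other. ISRE cores appear at both ends of the order, with 3 in IFI6 near the top and 3 in HERC5 near the bottom.

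The largest rise among the members, on log2(TPM + 1) and in TPM ratio, was that of SAMD9L, which codes for a large cytoplasmic protein that restrains viral translation and the growth of blood cells. It stood at 4.42 and 4.14 TPM in sh-NC and at 18.5 and 19.4 TPM in sh-ANP32B. The groups were far apart beside the gap between replicates, at a log2 fold change of 1.92 ± 0.11 (SE) with a limma adjusted p of 0.00021. SAMD9, its neighbour on chromosome 7 and a protein of the same family, was at 0.396 and 0.503 TPM in sh-NC and at 1.90 and 1.51 TPM in sh-ANP32B. That is a log2 fold change of 0.90 ± 0.23 (SE) with a limma adjusted p of 0.0236. SAMD9 passed the filter only through the sh-ANP32B libraries, where it is high, so its test is not independent of the filter. SAMD9 lost its call when any 1 of the 4 libraries was left out, with values from 0.79 to 1.00 and adjusted p from 0.0524 to 0.103. With a pseudocount of 0.1 it was called at 1.72, and under quantile normalization it was 0.55 and not called. Very little of their transcripts is shared, with 0.03% of the 31-base words of SAMD9 found in SAMD9L.

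IFI6 had the next-largest value on log2(TPM + 1), although the low genes SAMD9 and OASL had larger ratios of TPM, 3.80 and 3.28. IFI6 codes for a small membrane protein of mitochondria and the endoplasmic reticulum that blocks the replication of flaviviruses. The level of IFI6 was 106 and 111 TPM in sh-NC and 306 and 313 TPM in sh-ANP32B, the largest gain in TPM of any member. The fold in mean TPM was 2.85, and the log2 fold change was 1.50 ± 0.04 (SE), with a limma adjusted p of 6.16e-05. IFI6 shares 216 exonic bases on the same strand with LINC02574, which had no row. The promoters of SAMD9L and IFI6 are shown because these 2 genes had the largest log2 fold changes on log2(TPM + 1) and differ in the letters they hold. Capitals mark the ISRE cores. IFI6 had 3 in its window, of which 2 lie in the stretch shown, and SAMD9L had none that matched every letter. The stretch of SAMD9L does hold aaaactgaaa, which differs from the core in its first letter only. Both are on the minus strand and are written 5′ to 3′ along the gene, with SAMD9L at chr7:93148386-93148535 and IFI6 at chr1:27672213-27672342 on GRCh38.p14.
SAMD9L: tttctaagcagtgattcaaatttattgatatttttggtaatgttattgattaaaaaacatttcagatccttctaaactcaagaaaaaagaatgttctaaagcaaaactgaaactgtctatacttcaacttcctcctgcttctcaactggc
IFI6: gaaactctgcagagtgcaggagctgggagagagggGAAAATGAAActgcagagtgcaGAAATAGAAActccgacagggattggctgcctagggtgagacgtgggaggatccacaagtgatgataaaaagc

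All 5 of the tested members in the mixed group to which IFI6 belongs were higher, against 17.9% of all genes, at a median log2 fold change of 1.13. IFI30, a thiol reductase of lysosomes that helps antigens to be presented on MHC class II, went from 81.3 and 81.7 TPM to 175 and 184 TPM. This is a log2 fold change of 1.13 ± 0.05 (SE), with a limma adjusted p of 9.93e-05. IFI30 shares 997 exonic bases on the same strand with a read-through gene that has no row, and 47.5% of its 31-base words occur in other genes, so its level is uncertain. IFI16, a nuclear sensor of DNA, went from 17.9 and 16.5 TPM to 40.4 and 37.0 TPM, with a log2 fold change of 1.13 ± 0.08 and an adjusted p of 0.000377.

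SP110, a nuclear body protein, went from 13.4 and 14.6 TPM to 28.6 and 27.5 TPM, which is a log2 fold change of 0.95 ± 0.09 (SE) with a limma adjusted p of 0.000652. It overlaps SP140 and a long non-coding RNA on the opposite strand, and both of these were also at higher TPM in the sh-ANP32B libraries. The handling of strand is not given in the sources used here, so reads from such pairs cannot be told apart. IFI35, which binds the related protein NMI, went from 6.99 and 7.51 TPM to 11.6 and 14.7 TPM, at 0.77 ± 0.15 with an adjusted p of 0.00882. Both sh-ANP32B values of each of these genes were above both sh-NC values, as was so for 42.5% of all genes tested. The 5 genes without a row, IFI27, IFI44, IFI44L, XAF1 and LGALS3BP, also belong to this group, which was therefore seen only in part.

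The signalling factors were the other group that moved nearly as a whole, with 3 of 4 higher (75%, against 17.9% of all genes). Their median log2 fold change was 1.14. STAT2, the STAT that is specific to type I and type III interferon signalling, was at 47.1 and 50.4 TPM in sh-NC and at 122 and 111 TPM in sh-ANP32B. The log2 fold change of STAT2 was 1.24 ± 0.07 (SE), with a limma adjusted p of 0.000178. IRF9, the DNA-binding part of ISGF3, was at 9.85 and 8.62 TPM and rose to 23.4 and 22.2 TPM, at 1.22 ± 0.10 with an adjusted p of 0.000561. Both genes were thus at more than double their control level in each knockdown library. IRF9 shares 1544 exonic bases on the same strand with the gene ENSG00000259529, which stood at 5.24 and 7.53 TPM in sh-NC and at 13.0 and 17.1 TPM in sh-ANP32B, so the split of reads between them is uncertain.

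IRF7, which amplifies the interferon alpha genes, was at 5.45 and 4.99 TPM in sh-NC and at 11.3 and 12.7 TPM in sh-ANP32B. IRF7 had a log2 fold change of 1.06 ± 0.13 (SE), with a limma adjusted p of 0.00177. IRF1, a factor induced through the GAS element, was at 8.40 and 9.99 TPM in sh-NC and at 11.1 and 11.3 TPM in sh-ANP32B. The groups of IRF1 did not overlap, but its log2 fold change of 0.26 ± 0.12 had an adjusted p of 0.137 and was not called. IRF1 shares 2805 exonic bases with the antisense gene IRF1-AS1.

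**Figure D3:**
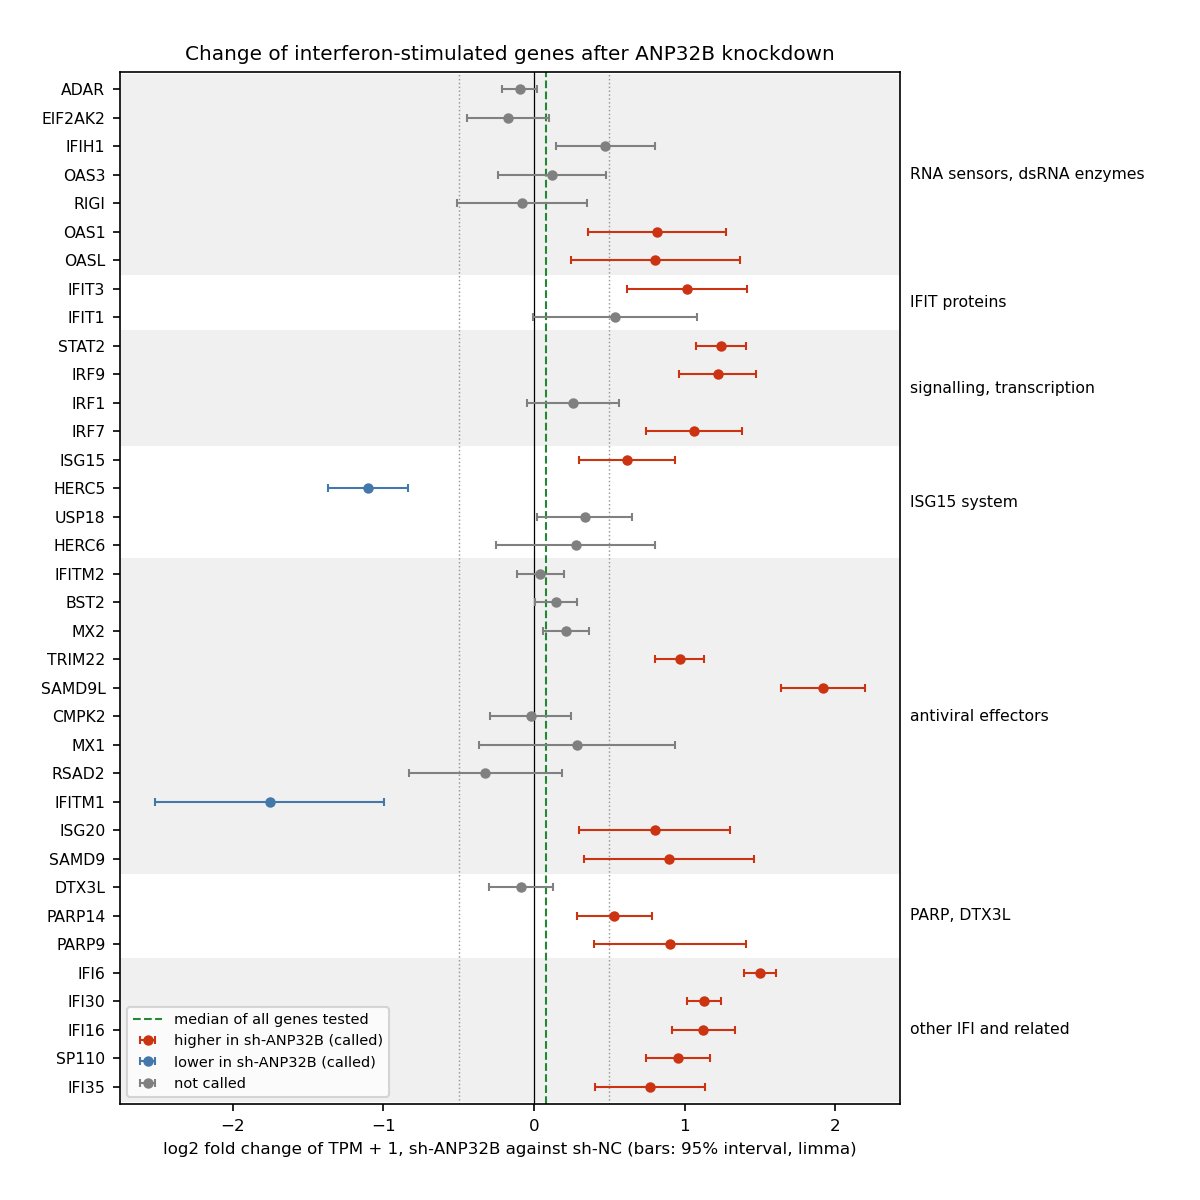
Log2 fold change of TPM + 1 in sh-ANP32B against sh-NC for the 36 tested members, grouped by role, with bars for the 95% interval from limma (n = 2 libraries per group). Red marks genes called higher, blue genes called lower and grey genes not called; dotted lines stand at 0.5 in either direction and the dashed green line at 0.08, the median of all genes tested. SAMD9L lies furthest to the right at 1.92 and IFITM1 furthest to the left at -1.75, with the widest interval.

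ISG15 and its enzymes did not move together. ISG15, a ubiquitin-like protein that is joined to other proteins, was at 25.8 and 33.8 TPM in sh-NC and at 45.8 TPM in both knockdown libraries. This log2 fold change of 0.62 ± 0.13 (SE), with a limma adjusted p of 0.0119, came to 0.43, inside the fold limit, without sh-NC replicate 1. HERC5, the main ligase that attaches ISG15 to its targets in human cells, was at 17.7 and 19.6 TPM in sh-NC and at 7.90 and 8.39 TPM in sh-ANP32B. HERC5 thus fell while its substrate rose, with a log2 fold change of -1.10 ± 0.11 and an adjusted p of 0.00082. It was called lower in all 10 refits with another setting or with a library left out.

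HERC6, its neighbour on chromosome 4, was at 1.74 and 1.45 TPM in sh-NC and at 2.47 and 1.84 TPM in sh-ANP32B. Its log2 fold change of 0.28 ± 0.21 (SE) was not called (limma adjusted p = 0.332), and it was -0.02 under quantile normalization. The 95% intervals of HERC5, from -1.37 to -0.84, and of HERC6, from -0.25 to 0.81, did not overlap, and the difference itself was not tested. USP18, the protease that removes ISG15 and also blocks the interferon receptor, was at 7.76 and 9.11 TPM in sh-NC and at 11.3 and 10.4 TPM in sh-ANP32B, at 0.34 ± 0.13 with an adjusted p of 0.0782. As 28.7% of the 31-base words of USP18 occur in other genes, chiefly USP41, its level is uncertain.

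The promoters of ISG15 and HERC5 are shown because both hold ISRE cores while the genes moved in opposite directions. Each stretch covers the 150 bases before the annotated start on the plus strand, at chr1:1013347-1013496 for ISG15 and chr4:88456969-88457118 for HERC5 on GRCh38.p14. Capitals mark the ISRE cores, which in HERC5 lie on the other strand and so read as TTTC repeats. ISG15 has 2 that overlap, and HERC5 has 3, of which 2 overlap.
ISG15: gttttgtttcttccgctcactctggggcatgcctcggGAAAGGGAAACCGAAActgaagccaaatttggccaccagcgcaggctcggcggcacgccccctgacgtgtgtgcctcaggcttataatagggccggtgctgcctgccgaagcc
HERC5: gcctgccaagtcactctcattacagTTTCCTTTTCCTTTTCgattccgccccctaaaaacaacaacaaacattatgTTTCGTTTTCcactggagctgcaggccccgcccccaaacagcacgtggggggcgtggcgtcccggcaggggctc

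Among the RNA sensors and enzymes of double-stranded RNA, 2 of 7 were higher (28.6%, against 17.9% of all genes) and none was lower. Their median log2 fold change was 0.12. OAS1, an enzyme that makes short oligoadenylates on binding double-stranded RNA, was at 3.31 and 2.91 TPM in sh-NC and at 7.19 and 5.41 TPM in sh-ANP32B. The change of OAS1 on the log2 scale was 0.82 ± 0.18 (SE), with a limma adjusted p of 0.0160. OASL, a relative without that activity which assists RIG-I, was at 0.455 and 0.532 TPM and rose to 1.42 and 1.81 TPM, at 0.81 ± 0.23 with an adjusted p of 0.0330. OASL passed the filter only through the sh-ANP32B libraries, where it is high, so its test is not independent of the filter. Both calls were weak. That of OAS1 was lost without sh-NC replicate 2 (0.75, adjusted p = 0.0599) and without sh-ANP32B replicate 1 (0.64, adjusted p = 0.0733), and that of OASL was lost when any 1 library was left out, with values from 0.70 to 0.91 and adjusted p from 0.0658 to 0.132. Under quantile normalization OAS1 was at 0.59 with an adjusted p of 0.0540 and OASL at 0.46, neither of them called. With a pseudocount of 0.1 OASL was called at 1.53.

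OAS3, the relative of OAS1 next to it on chromosome 12, was at 8.18 and 10.5 TPM in sh-NC and at 10.2 and 10.1 TPM in sh-ANP32B. The groups overlapped, and the log2 fold change was 0.12 ± 0.14 (SE), turning to -0.03 under quantile normalization and to -0.05 without sh-NC replicate 1. IFIH1, the sensor MDA5 for long double-stranded RNA, was at 7.60 and 9.40 TPM in sh-NC and at 12.3 and 12.0 TPM in sh-ANP32B. Its adjusted p by limma was 0.0323, but its log2 fold change of 0.47 ± 0.13 lay just inside the fold limit, and it was past it at 0.61 without sh-NC replicate 2 and at 0.52 with a pseudocount of 0.1. RIGI, the sensor RIG-I for RNA with a triphosphate end, was at 6.51 and 4.84 TPM in sh-NC and at 5.25 and 5.28 TPM in sh-ANP32B. Its groups overlapped at a log2 fold change of -0.08 ± 0.17, which became 0.10 without sh-NC replicate 1, and 45.7% of its 31-base words occur in other genes.

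EIF2AK2, the kinase PKR that halts translation on binding double-stranded RNA, was at 15.9 and 17.0 TPM in sh-NC and at 13.4 and 15.7 TPM in sh-ANP32B. ADAR, which edits adenosine in double-stranded RNA and keeps it from being sensed, was at 169 and 176 TPM in sh-NC and at 158 and 166 TPM in sh-ANP32B. Both were lower in both knockdown libraries, as were 32.1% of all genes tested. The margin was small for both, and neither was called. Their log2 fold changes were -0.17 ± 0.11 (SE) and -0.10 ± 0.05, with limma adjusted p of 0.253 and 0.148. The 95% interval of ADAR ran from -0.21 to 0.02 and that of EIF2AK2 from -0.44 to 0.10.

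The genes of the IFIT proteins, some of which bind viral RNA at its 5′ end, were all low. IFIT3 was at 2.00 and 2.06 TPM in sh-NC and at 5.04 and 5.20 TPM in sh-ANP32B, with a log2 fold change of 1.02 ± 0.16 (SE) and a limma adjusted p of 0.00469. IFIT1 was at 0.856 and 1.30 TPM in sh-NC and at 2.05 and 1.96 TPM in sh-ANP32B. The groups of IFIT1 did not overlap, but its log2 fold change of 0.54 ± 0.22, with a 95% interval from -0.01 to 1.09, had an adjusted p of 0.0951 and was not called. It was not called either with a pseudocount of 0.1 (0.86) or under quantile normalization (0.25). IFIT2 was at 0.383 and 0.527 TPM in sh-NC and at 1.39 and 0.847 TPM in sh-ANP32B, too low for the filter. Tested without the filter, IFIT2 had a log2 fold change of 0.53 ± 0.25 and an adjusted p of 0.143. These 3 genes lie close together on chromosome 10, and all 3 were higher in both knockdown libraries, as were 42.5% of all genes tested. IFIT2 and IFIT3 share 65 and 94 exonic bases with LIPA on the opposite strand. LIPA stood at 22.1 and 22.5 TPM in sh-NC and at 49.7 and 47.1 TPM in sh-ANP32B. As the handling of strand is not given, reads from the shared bases cannot be told apart. The proximal promoter of IFIT1 is shown because its pair of ISRE cores is a textbook example of the element. The 2 cores, in capitals, lie on the other strand of chr10:89392473-89392545 on GRCh38.p14, plus strand.
IFIT1: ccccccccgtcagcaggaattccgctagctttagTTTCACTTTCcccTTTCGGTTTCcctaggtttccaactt

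Among the antiviral effectors 4 of 11 were higher (36.4%, against 17.9% of all genes) and 1 was lower (9.09%, against 10.1%). The other 6 were not called, and the median log2 fold change was 0.21. Of those called, SAMD9 passed the filter only through sh-ANP32B and IFITM1 only through sh-NC. ISG20, below 1 TPM in sh-NC replicate 2, also needed the sh-ANP32B libraries to pass. Beside SAMD9L and SAMD9, TRIM22 and ISG20 rose. TRIM22, a ligase that restricts HIV transcription, was at 20.5 and 21.4 TPM in sh-NC and at 42.4 and 41.6 TPM in sh-ANP32B, with a log2 fold change of 0.97 ± 0.07 (SE) and a limma adjusted p of 0.0003. ISG20, an exonuclease that degrades single-stranded RNA, was at 1.07 and 0.855 TPM in sh-NC and at 2.39 and 2.44 TPM in sh-ANP32B, at 0.80 ± 0.20 with an adjusted p of 0.0231. The replicates of ISG20 lay close together, yet its call was lost when any 1 library was left out, with values from 0.72 to 0.88 and adjusted p from 0.0656 to 0.0981. ISG20 was called at 1.25 with a pseudocount of 0.1 and was not called at 0.51 under quantile normalization.

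The 3 most abundant effectors stayed inside the fold limit. IFITM2, which keeps viruses from fusing with the endosome, was the highest member at 338 and 337 TPM in sh-NC and at 327 and 369 TPM in sh-ANP32B. Its groups overlapped, and its log2 fold change of 0.04 ± 0.06 (SE) became -0.04 without sh-ANP32B replicate 2. As 29.8% of its 31-base words occur in other genes, chiefly IFITM3, its level is uncertain. BST2, the tetherin that holds budding virus at the cell surface, was at 176 and 177 TPM in sh-NC and at 186 and 205 TPM in sh-ANP32B, at 0.15 ± 0.06 with a limma adjusted p of 0.0847. MX2, a GTPase that blocks HIV at the nuclear pore, was at 160 and 172 TPM in sh-NC and at 200 and 183 TPM in sh-ANP32B. MX2 passed the p limit (adjusted p = 0.0379) at a log2 fold change of only 0.21 ± 0.06.

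MX1, the relative of MX2 next to it on chromosome 21, was far lower, at 2.39 and 3.86 TPM in sh-NC and at 3.23 and 4.79 TPM in sh-ANP32B. The groups of MX1 overlapped, at a log2 fold change of 0.29 ± 0.26 (SE). RSAD2, the enzyme viperin, was at 3.59 and 4.39 TPM in sh-NC and at 3.50 and 2.51 TPM in sh-ANP32B, and its neighbour CMPK2, a mitochondrial kinase that supplies the nucleotide viperin acts on, was at 9.96 and 10.7 TPM and at 9.89 and 10.4 TPM. Neither was called, at -0.32 ± 0.20 for RSAD2 and -0.02 ± 0.11 for CMPK2, whose sign changed without sh-NC replicate 2 (0.02) and without sh-ANP32B replicate 1 (0.01). The 2 genes share 351 exonic bases on opposite strands.

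IFITM1, the member of the IFITM family at the cell surface, was at 2.91 and 3.75 TPM in sh-NC and at 0.631 TPM in sh-ANP32B replicate 1, and it was listed at 0 in sh-ANP32B replicate 2. Its log2 fold change of -1.75 ± 0.30 (SE) had a limma adjusted p of 0.00661, and it ran from -2.11 to -1.40 when a library was left out. With a pseudocount of 0.1 it was -3.65, so its size depends on the pseudocount. IFITM1 passed the filter only through the sh-NC libraries, where it is high, so its test is not independent of the filter. Its level is uncertain, since 37.8% of its 31-base words occur in other genes, chiefly IFITM3, which had no row. The sites of BST2 and IFITM1 are shown because the first gene was not called and the other fell, although each holds ISRE cores. Capitals mark the ISRE core in 30-base stretches at chr19:17405741-17405770 on the minus strand for BST2, where 2 cores overlap, and at chr11:313990-314019 on the plus strand for IFITM1, where 1 of its 2 cores is shown, on GRCh38.p14.
BST2: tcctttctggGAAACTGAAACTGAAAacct
IFITM1: caaacagcagGAAATAGAAActtaagagaa

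PARP9 and DTX3L, which code for 2 proteins that work as a pair in adding ADP-ribose and ubiquitin at DNA breaks and on histones, start next to each other on chromosome 3 and point in opposite directions. PARP9 was at 3.30 and 4.74 TPM in sh-NC and at 9.34 and 7.40 TPM in sh-ANP32B, with a log2 fold change of 0.91 ± 0.20 (SE) and a limma adjusted p of 0.0156. DTX3L was at 18.1 and 19.4 TPM in sh-NC and at 17.9 and 17.2 TPM in sh-ANP32B, at -0.09 ± 0.08 with an adjusted p of 0.443. PARP9 thus rose while DTX3L, the more abundant of the pair, was not called. Their 95% intervals, from 0.40 to 1.41 for PARP9 and from -0.30 to 0.13 for DTX3L, did not overlap, and the difference itself was not tested. The call of PARP9 was lost without sh-NC replicate 1 (0.70, adjusted p = 0.0524) and without sh-ANP32B replicate 1 (0.76, adjusted p = 0.0664). The genes share 139 exonic bases on opposite strands.

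The windows of PARP9 and DTX3L hold the same ISRE core, which is shown because the genes on its 2 sides differed. It is given on the minus strand, along PARP9, at chr3:122564322-122564351 on GRCh38.p14, with the core in capitals.
PARP9: gggcgcaaagTTTCAGTTTCgcttccctgg

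PARP14, a large ADP-ribosyltransferase on the same chromosome, was at 11.4 and 12.8 TPM in sh-NC and at 18.4 and 17.5 TPM in sh-ANP32B. Its log2 fold change of 0.53 ± 0.10 (SE), with a limma adjusted p of 0.0086, lay just past the fold limit. The call was lost without sh-NC replicate 1 (0.46), under median-of-ratios scaling (0.49) and under quantile normalization (0.45).

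Upstream of these genes, no interferon gene was seen. Of 21 genes for interferon alpha, beta, gamma, lambda and related ligands none had a row, so none was analysed here. The receptor subunits and their kinases that had a row all lay higher in both knockdown libraries, as did 42.5% of all genes tested. Of 9 such genes 8 were tested, and 4 were higher (50%, against 17.9% of all genes). None was lower, against 10.1% of all genes, and the median log2 fold change was 0.51. TYK2 rose by 0.65 ± 0.06 (SE), JAK2 by 0.59 ± 0.11, IL10RB by 0.57 ± 0.05 and IFNGR1 by 0.56 ± 0.07. The limma adjusted p of these 4 were 0.000607, 0.00915, 0.000587 and 0.00174. The call of IFNGR1 was lost without sh-ANP32B replicate 1 (0.50 after rounding, adjusted p = 0.00733), and that of JAK2 under quantile normalization (0.42). IFNAR2 at 0.46, IFNAR1 at 0.39, IFNGR2 at 0.28 and JAK1 at 0.27 passed the p limit and not the fold limit, and IFNLR1 had no row.

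Among 25 sensors and adaptors that lead to interferon production, 20 were tested, 3 were higher and 3 lower, at a median log2 fold change of 0.17. That is 15% in each direction, near the 17.9% and 10.1% of all genes. DHX58, the RIG-I-like receptor LGP2, went from 3.03 and 4.67 TPM to 16.7 and 16.9 TPM, at 1.89 ± 0.19 (SE) with a limma adjusted p of 0.0009. Its 95% interval, from 1.43 to 2.36, lay above those of its relatives IFIH1, from 0.15 to 0.80, and RIGI, from -0.51 to 0.35, and the differences themselves were not tested. SAMHD1, which depletes the nucleotides that viruses need, was higher by 1.49 ± 0.12 and the kinase IKBKE by 0.67 ± 0.08. RNASEH2A and RNASEH2B, subunits of the enzyme that removes RNA from DNA, fell by 1.01 and 0.54, and the adaptor TRAF3 fell by 0.50. The call of RNASEH2B was lost without sh-ANP32B replicate 2 (-0.40), and that of TRAF3 without sh-NC replicate 2 (-0.49) and without sh-ANP32B replicate 1 (-0.49).

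Of 12 negative regulators 11 were tested, at a median log2 fold change of -0.17. Only the phosphatase PTPN6 was called, higher by 0.66 ± 0.05 (SE). That is 9.09% higher, against 17.9% of all genes, and none lower, against 10.1%. SOCS1, which is itself induced by interferon, stood at 3.21 and 2.81 TPM in sh-NC and at 5.32 and 4.10 TPM in sh-ANP32B, at 0.51 ± 0.18 with a limma adjusted p of 0.0715. IRF2, at 0.47, was past the fold limit without sh-ANP32B replicate 2 (0.60). At the low end stood TRIM24 at -0.50, PIAS4 at -0.29 and PTPN1 at -0.27, none of them called. TRIM24 lay just within the fold limit, and it was called lower without sh-NC replicate 1 (-0.57), without sh-ANP32B replicate 2 (-0.61), with a pseudocount of 0.1 (-0.52), under median-of-ratios scaling (-0.54) and under quantile normalization (-0.57).

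A further list of 48 interferon-stimulated genes outside the members was mixed as well. Of 39 tested, 14 were higher (35.9%, against 17.9% of all genes) and 3 lower (7.69%, against 10.1%), at a median log2 fold change of 0.30. The largest rise was that of UBA7, the enzyme that activates ISG15 for conjugation, from 34.7 and 32.8 TPM to 135 and 126 TPM, at 1.92 ± 0.06 (SE) with a limma adjusted p of 6.52e-05. UBE2L6, the next enzyme of that chain, fell by 0.57 ± 0.07 with an adjusted p of 0.00231, though its call was lost without sh-ANP32B replicate 2 (-0.48). The activating enzyme UBA7 and ISG15 itself were thus higher, and the conjugating enzyme UBE2L6 and the ligase HERC5 lower. TNFSF10, the death ligand TRAIL, rose by 1.22 ± 0.19. APOBEC3B fell by 0.88 ± 0.05 and LY6E by 0.54 ± 0.06, the second losing its call without sh-NC replicate 2 or without sh-ANP32B replicate 2 (-0.50 in both after rounding).

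Among 23 genes that lean to interferon gamma, 13 were tested, at a median log2 fold change of 0.51. Of these 6 were higher (46.2%, against 17.9% of all genes) and 1 was lower (7.69%, against 10.1%). FCGR1A, the high-affinity IgG receptor, rose by 1.26 ± 0.07 (SE), GBP3 by 0.89 ± 0.19 and APOL2 by 0.82 ± 0.14. FCGR1A is also among the monocyte and macrophage markers, and SOCS1 stands in both this list and that of the negative regulators. WARS1, a tRNA synthetase, fell by 0.51 ± 0.05, while APOL6 at 0.01 and IRF8 at 0.04 were not called. The call of GBP3 was lost without sh-NC replicate 1 (0.77, limma adjusted p = 0.0607) and without sh-ANP32B replicate 1 (0.85, limma adjusted p = 0.0578). That of WARS1 was lost without sh-NC replicate 2 (-0.47), without sh-ANP32B replicate 1 (-0.48) and under quantile normalization (-0.49). IRF8 changed sign under median-of-ratios scaling, and APOL6 under both other scalings.

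**Figure D4:**
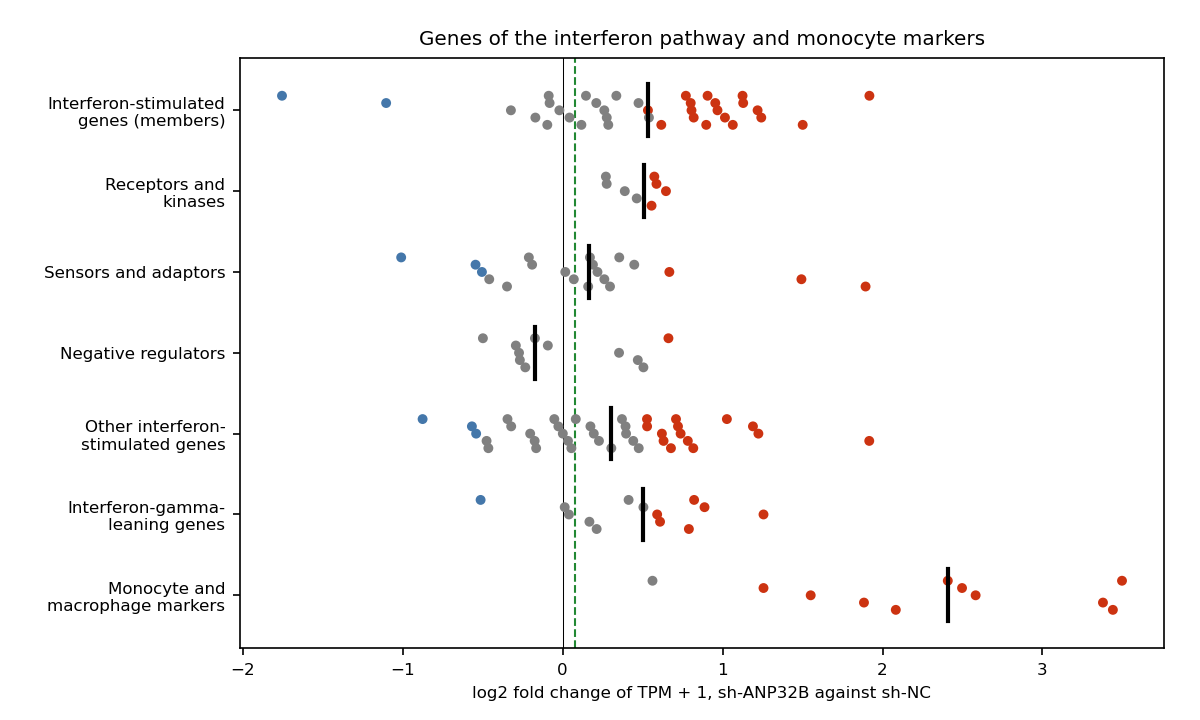
Log2 fold change of TPM + 1 in sh-ANP32B against sh-NC for each tested gene of the members, of 5 other lists of the interferon pathway and of the monocyte and macrophage markers. Each point is a gene, red where called higher, blue where called lower and grey where not called; black bars are list medians and the dashed green line is the median of all genes, 0.08. The medians run from -0.17 for the negative regulators to 0.54 for the members and 2.41 for the monocyte and macrophage markers.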

How the data were processed

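RNA was extracted with Trizol and made into libraries with an Illumina TruSeq kit, per the labels. The authors aligned reads to hg38 with HISAT2 (version 2.0.5 per the submitters' processing notes) and deposited 1 table of TPM with a column for each library. That the unit is TPM was read from the values, whose totals lie between 997271 and 998546 in every library. The tool behind the TPM, its annotation and its handling of strand are not given in the sources used here. Read numbers cannot be had from TPM, so depth and counting error are unknown.

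Of 18885 gene identifiers 14961 matched a symbol. Gene positions and shared exons come from GENCODE version 44, and 31-base words were counted over its transcripts. limma (version 3.58.1, R 4.3.3) was fitted with lmFit and eBayes with a trend to log2(TPM + 1) for the 16937 genes that reached 1 TPM in 2 or more libraries, with Benjamini-Hochberg adjustment over all of them. The paper's test was made for counts and was not run on TPM. An exact permutation test of 2 against 2 libraries cannot go below p = 0.33 and was not used. On simulated data of 16937 genes with 200 changed by a log2 fold change of 1, 188 were recovered and 1 unchanged gene was called. The simulated noise was normal and set by the mean level alone, with no spread particular to a gene. Far fewer genes were changed than the 3024 higher and 1712 lower called in the data. The simulation checks the code and does not give the error rate of these calls.

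Every member was reported. All members of the ligand and receptor lists, and the 3 highest and 3 lowest of the other pathway lists, were named where a row allowed, except for some items that are not reported here. The members and lists were chosen with earlier results of these data known. The alternatives were a replicate block, a pseudocount of 0.1, no filter, a filter of 1 TPM in all 4 libraries, scaling by median of ratios, quantile normalization, an unadjusted p, a fold limit of 1 and each library left out in turn. Tables and plots were made in Python 3.11.15 with numpy 2.4.6, pandas 2.3.3 and matplotlib 3.10.9.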

Additional observations from a re-analysis of the deposited data

How the results depend on the processing

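Among the members, 11 were called higher and 2 lower in the fit reported and in all 10 refits that could include them. With a fold limit of 1, 8 members (22.2%) were higher and 2 (5.56%) lower, against 1136 (6.71%) and 273 (1.61%) of all genes. The 2 lower members were HERC5 and IFITM1 at either limit, and IFITM1 passed the filter only through the sh-NC libraries. The shares of lower members rest on these 2 genes alone. With at least 1 TPM in every library 1 member was lower, since IFITM1 then dropped out of the test. The members' median was 0.39 under quantile normalization and ran from 0.41 to 0.65 when a library was left out. The changes of sign were all in genes that were not called. When each library was left out in turn, RIGI ran from -0.2622 to 0.10, OAS3 from -0.0464 to 0.2815, IFITM2 from -0.0444 to 0.1312, CMPK2 from -0.0651 to 0.0248 and IRF8 from -0.1863 to 0.2654. Under quantile normalization OAS3 was at -0.0332, HERC6 at -0.0205 and APOL6 at -0.0752, and under median-of-ratios scaling APOL6 was at -0.0269 and IRF8 at -0.0032. The cause was not tested.

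The replicate numbers did not pair the libraries, since libraries with the same number did not deviate together (correlation of deviations -0.0232). With the replicate number as a block, 17 members (47.2%) were higher and 2 (5.56%) lower, with 2853 (16.8%) and 1671 (9.87%) of all genes. OASL then lost its call at an adjusted p of 0.0505 by limma. With 2 libraries per group and no read numbers, changes of the members under about 1 TPM rest on little signal.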
